A study of Mus musculus with 4 samples.

Results

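Neutrophils and granulocyte precursors made up 277 of the 24893 single cells kept from 4 splenic libraries (1.11%) that had been sorted as GP33 tetramer-positive CD8+ T cells. The study asked what the NF-kB regulator Bcl-3 does in CD8+ T cells during acute infection with lymphocytic choriomeningitis virus (LCMV), and these granulocytes came along with the sort. Cells with at least 500 detected genes and at most 10% mitochondrial UMIs (unique molecular identifiers, each counting 1 captured transcript) were kept, and neutrophils and precursors were chosen by at least 20 summed UMIs of S100a8, S100a9, Ngp and Camp, with at most 1 summed UMI of the macrophage genes C1qa, C1qb and C1qc and at most 1 of the B cell genes Cd79a and Ms4a1. The levels of these 9 genes are therefore a description. No test result is given for any of them by name, nor for any gene in these cells against the rest. Counts over all genes tested still include some of them.

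The mice were mixed bone marrow chimeras, in which wild-type (WT, CD45.1) and Bcl3-/- (KO, CD45.2) marrow was given together to sub-lethally irradiated Rag1-/- hosts on the C57BL/6 background. Every animal had received LCMV Armstrong, and its spleen was collected on day 8. WT1 and KO1 are the libraries of chimera 1 and WT2 and KO2 those of chimera 2, so that n = 2 per genotype and both genotypes shared each animal. Rag1-/- hosts lack mature B and T cells but keep their own myeloid lineage, and hosts of this background usually carry CD45.2. Granulocytes in the KO libraries may thus come from the Bcl3-/- marrow or from the host, and these sources cannot be told apart. The libraries held 21193300 (WT1), 20358780 (WT2), 22922219 (KO1) and 22672343 (KO2) UMIs.

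Neutrophils arise in the marrow through promyelocytes, myelocytes and metamyelocytes. Promyelocytes transcribe the primary granule proteases and myeloperoxidase, myelocytes and metamyelocytes the specific granule proteins, and later cells the gelatinase granule proteins and then the chemokine and cytokine receptors with which they leave the marrow and find inflamed tissue. S100a8 and S100a9 form calprotectin, an abundant cytosolic protein of these cells. The spleen holds mature neutrophils and, in infection, can also make granulocytes.

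The cells carried the named markers in every library. The summed UMIs of S100a8 were 64147 CPM (UMIs scaled to 1e6 per library) for WT1, 72707 for WT2, 73943 for KO1 and 109865 for KO2, against 124 to 403 CPM in all other cells of a library. Retnlg, a resistin-like protein of neutrophils that the choice did not use, was at 9321 (WT1), 11032 (WT2), 8897 (KO1) and 11169 CPM (KO2), and at least 1 UMI of it was found in 226 of the 277 cells. Csf3r, the receptor of the growth factor G-CSF, was found in 189 cells, Mmp9 in 153, Cxcr2 in 142 and Ly6g in 105. The genes most raised over the other cells in every library, by the smallest of the 4 ratios of CPM, were led by the stefin Stfa1 (539-fold), Stfa2l1 (372-fold), Gm5483 (331-fold), the collagenase Mmp8 (307-fold), Il1f9 (302-fold), Mmp9 (279-fold), Lrg1 (270-fold) and the chemokine receptor Cxcr2 (261-fold). Stefin genes are near-identical copies, so that reads can be split among them.

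The sequences just upstream of 4 of these genes are shown because S100a8 was found in all 277 cells whereas Ngp, Camp and Ltf were found in fewer (106, 73 and 56 cells). S100a8, Ngp and Camp were used in the choice, so their cell counts follow in part from it. Each runs 5′ to 3′ on the strand of its gene (GRCm38.p6, RefSeq), within 250 bases of the annotated start and ending before every annotated start. Capitals mark matches to TTNNGNAA, a loose form of the site of C/EBP factors, on either strand. The motif was chosen after several had been searched, and a match is a description, not a site.
S100a8 (chr3:90668821-90668977, plus strand): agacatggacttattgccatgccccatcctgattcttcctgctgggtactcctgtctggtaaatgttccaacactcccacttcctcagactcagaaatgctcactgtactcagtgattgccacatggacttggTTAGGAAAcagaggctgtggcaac
Ngp (chr9:110419558-110419746, plus strand): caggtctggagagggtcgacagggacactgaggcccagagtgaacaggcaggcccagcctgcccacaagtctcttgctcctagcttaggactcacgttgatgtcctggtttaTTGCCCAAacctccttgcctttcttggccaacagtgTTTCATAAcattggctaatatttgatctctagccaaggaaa
Camp (chr9:109849618-109849706, minus strand): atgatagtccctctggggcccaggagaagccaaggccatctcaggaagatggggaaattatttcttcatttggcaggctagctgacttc
Ltf (chr9:111019042-111019270, plus strand): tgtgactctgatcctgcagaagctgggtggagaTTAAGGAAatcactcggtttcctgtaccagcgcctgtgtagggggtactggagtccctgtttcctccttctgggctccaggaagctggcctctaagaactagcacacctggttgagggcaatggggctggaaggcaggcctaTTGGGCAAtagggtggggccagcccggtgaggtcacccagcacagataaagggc
The stretch of S100a8 held 1 match, those of Ngp and Ltf 2 each and that of Camp 0. They were 157 (S100a8), 189 (Ngp), 229 (Ltf) and 89 bases (Camp) long. Bases past the end of a stretch were not searched, also where they lie nearer to the annotated start. Over the same windows, 27.1%, 31.1%, 35.0% and 16.7% of the 32851 promoters in the table held at least 1, in the order S100a8, Ngp, Ltf and Camp, so that a match is common. Ngp, Camp and Ltf lie on chromosome 9, with the starts of Camp and Ngp 570 kb apart and those of Ngp and Ltf 599 kb apart.

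Some of the cells went against the label. In 9 of the 277 (WT1 1, WT2 5, KO1 3 and KO2 0) no UMI of Ngp, Camp, Retnlg, Ltf, Csf3r or Cxcr2 was found. In 5 of these 9, all from WT libraries (1 in WT1 and 4 in WT2), Lyz2 reached 73 to 219 UMIs, Chil3 30 to 67, Cd74 12 to 49 and Ly6c2 8 to 66, which are genes of monocytes. A KO1 cell of 16433 UMIs also held 90 UMIs of Lyz2 and 65 of Cd74. It was not among the 9, as it had 3 UMIs of Ngp and Camp. A further sign was a small share of the 4 choosing genes, under 1% of a cell's UMIs in 10 of the 277 cells (WT1 3, WT2 1, KO1 5 and KO2 1). The deepest of these, a KO1 cell of 32105 UMIs, passed the choice with 21 UMIs of the 4 genes (0.0654%, or 654 CPM), fewer per UMI than the 776 CPM in the other cells of KO1. It held 52 UMIs of T cell lineage genes and 311 of cell cycle genes, with Retnlg, Ltf, Csf3r and Cxcr2 at 0, and gave 11.7% of the UMIs summed for KO1. Without the 9 cells no gene was called between genotypes, and without the 8 cells of under 1% that lay outside the primary granule range (described below; WT1 2, WT2 1, KO1 4 and KO2 1) 3 genes were called higher and 1 lower. Values without each set therefore stand beside the results they bear on. The limit of 1% did not remove every monocyte-gene cell. Those of WT2 with 16771, 2449 and 3574 UMIs passed it, and the latter 2 lay in the mature range.

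Transcripts of T cells were present in most of these cells. The median was 2 UMIs of T cell lineage genes (Cd3d, Cd3e, Cd3g, Cd8a and Cd8b1) in each library, against 22 (WT1), 12 (WT2), 23 (KO1) and 19 (KO2) in the other cells, and 36 of the 277 cells had 0 and 39 had at least 10. All 5 genes were found, with Cd8b1 the most abundant. Their summed level was 1684 (WT1), 1616 (WT2), 1761 (KO1) and 1424 CPM (KO2) in these cells, 5413 to 6068 CPM in the other cells and 5012 to 6145 CPM in droplets of 1 to 50 UMIs, which hold mainly free RNA. No doublet caller was run, and the part of doublets and of free RNA in these UMIs was not tested. In the other direction, 32.3% (WT2) to 85.4% (KO1) of other cells had at least 1 UMI of the 4 choosing genes, with a median of 0 to 2, and the genes stood at 1460 (WT2) to 3949 CPM (KO1) in the droplets. Few cells lay near the limit of the choice, as 7 cells had 20 to 29 summed UMIs (the lowest 20, 20, 21 and 23) and 24 cells had 10 to 19 (the highest 19, 18, 16 and 15). A further 18 cells were removed by C1q (15) or B cell genes (3). No barcode was shared between neutrophils of different libraries.

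Markers of other lineages were measured in the same cells. All 14 monocyte and macrophage genes had a UMI, led by Ly6c2, with a summed level of 2897 (WT1), 3194 (WT2), 2585 (KO1) and 2617 CPM (KO2) against 4154 to 4622 CPM in other cells. Activated CD8+ T cells also express Ly6c2. Of 6 eosinophil genes 3 were found, led by Siglecf, at 6.12 (WT1), 19.5 (WT2), 14.6 (KO1) and 8.26 CPM (KO2), with Epx, Prg3 and Il5ra at 0. Basophil and mast cell genes came to 10.9 CPM of Prss34 in KO1 and 0 in the other 3 libraries, with Mcpt8 and Cpa3 at 0. Of 7 dendritic cell genes only Bst2 and Itgax were found, at 82.6 (KO2) to 153 CPM (WT1), and Siglech, Xcr1 and Clec9a were at 0. Plasma cell genes stood at 208 (WT1), 166 (WT2), 1054 (KO1) and 219 CPM (KO2), led by Jchain. B cell genes, led by Cd74, stood at 717 (WT1), 1899 (WT2), 1028 (KO1) and 900 CPM (KO2). Monocytes also express Cd74, and the 4 monocyte-gene cells of WT2 held 49, 38, 34 and 12 of its 149 UMIs of Cd74, and that of WT1 31 of 51. Erythroid genes stood at 1292 CPM in WT1 and at 7.29 (KO1) to 53.7 CPM (KO2) elsewhere, and 1 cell of WT1 held 65 of the 67 UMIs of Hba-a1 there. Platelet genes stood at 300 CPM in WT1, 41.3 in KO2 and 0 in WT2 and KO1, with all 26 UMIs of Ppbp in WT1 in 1 cell.

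More of the sorted cells were neutrophils or precursors in the KO libraries, although an exact test of 2 libraries against 2 cannot fall below p = 0.33. They were 45 of the 4941 kept in WT1 (0.911%, 95% exact Clopper-Pearson interval 0.665 to 1.22), 35 of 8092 in WT2 (0.433%, 0.301 to 0.601), 101 of 5366 in KO1 (1.88%, 1.54 to 2.28) and 96 of 6494 in KO2 (1.48%, 1.20 to 1.80). Both KO libraries lay above both WT libraries. The intervals, which cover counting error only, overlapped between genotypes for KO2 and WT1 alone. The mean share was 1.68% ± 0.286 in KO and 0.672% ± 0.338 in WT (SD, n = 2 each), a difference of 1.01 percentage points (2-sided exact permutation test, p = 0.33, the smallest that 2 against 2 allow). Within chimeras the differences were 0.971 points (chimera 1) and 1.05 points (chimera 2). Among cells with 0 T cell lineage UMIs (7, 6, 6 and 17 in WT1, WT2, KO1 and KO2) the difference was 0.0789 points (exact p = 0.67).

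**Figure D1:**
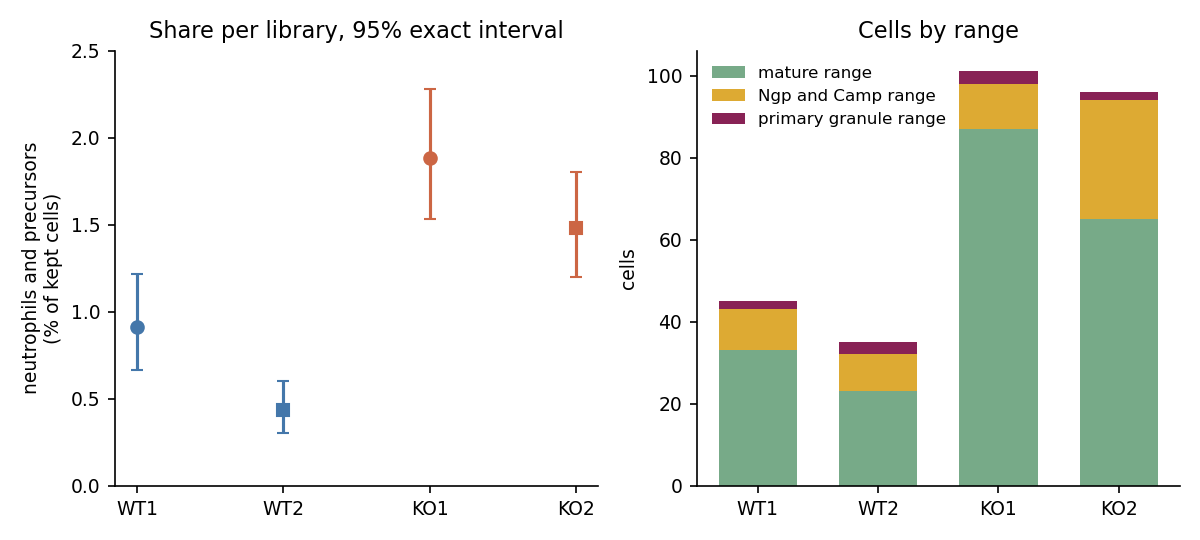
Left, neutrophils and precursors as a percentage of kept cells in each library, with 95% exact intervals for counting error; both KO libraries (1.88% and 1.48%) lie above both WT libraries (0.911% and 0.433%). Right, the number of these cells in the mature, the Ngp and Camp, and the primary granule range, with mature cells the most numerous in every library.

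Neutrophils were small in RNA. Their median depth was 1571 (WT1), 1473 (WT2), 1441 (KO1) and 1616 UMIs (KO2), below the 3578.5, 2020, 3637 and 2953.5 UMIs of the other cells in the same order, and they had medians of 616 (WT2) to 702 genes (WT1). A median of 12.2% (KO1) to 16.7% (KO2) of a cell's UMIs came from the 4 choosing genes alone. Mitochondrial transcripts took a median of 1.20% (WT1), 1.30% (WT2), 0.962% (KO1) and 0.852% (KO2) of UMIs, against 2.59% to 2.72% in the other cells.

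Behind these medians were 3 ranges, drawn after the values had been seen. Cells with at least 10 UMIs of primary granule genes other than Ctsc were put in a primary granule range, remaining cells with at least 10 UMIs of Ngp and Camp in a Ngp and Camp range, and the rest in a mature range. Few cells were near the limits, with 2 at 10 to 19 and 0 at 5 to 9 UMIs of primary granule genes, and 6 at 10 to 19 and 6 at 5 to 9 UMIs of Ngp and Camp. In all, 163 of the 277 cells had 0 UMIs of Ngp and Camp.

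The primary granule range held 10 cells (2 of WT1, 3 of WT2, 3 of KO1 and 2 of KO2), with 8692 to 33989 UMIs each. Elane, neutrophil elastase, was found in 10 of all 277 cells and reached 273 UMIs in a WT1 cell, 153 in a WT2 cell and 271 in a KO2 cell, beside 147, 35 and 113 UMIs of Mpo, the myeloperoxidase gene. These 3 cells had 0 to 156 UMIs of Ngp and Camp, while 5 others of the range had 626 to 1512 with 10 to 75 UMIs of primary granule genes, and Ltf, lactoferrin, at 15 to 86 UMIs in the latter. Ltf was at 0 in the 3 Elane-rich cells, while Lyz2 was found in all 10 cells of the range. The range thus holds cells of unlike makeup, and its name gives the genes that set it, not a stage. In the 5 monocyte-gene cells, 1 of WT2 was also in this range (23 UMIs of Elane, 170 of Lyz2).

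The Ngp and Camp range held 10 (WT1), 9 (WT2), 11 (KO1) and 29 cells (KO2), at medians of 4309, 2626, 3596 and 3152 UMIs. After thinning each cell to 1000 UMIs, which left out 19 of the 277, Ngp averaged 39.31 UMIs in this range, 27.1 in the primary granule range and 0.29 in the mature range. Ltf, which the ranges did not use, averaged 6.31, 1.5 and 0.01 UMIs in the same order, Lcn2 (lipocalin 2, an iron-siderophore binding protein) 8.22, 2.3 and 0.61, and the collagenase Mmp8 1.85, 0 and 0.46.

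The mature range held 33 of the 45 cells of WT1 (73.3%), 23 of 35 of WT2 (65.7%), 87 of 101 of KO1 (86.1%) and 65 of 96 of KO2 (67.7%), at medians of 1184 (WT2) to 1332 UMIs (KO1). The genotypes overlapped in this share, although within each chimera it was higher in KO. Per 1000 UMIs the mature range had more Wfdc17, a WAP-domain protein, than the Ngp and Camp range (7.67 against 0.68), more Ifitm1, an interferon-induced membrane protein (4.8 against 0.32), more Ccl6 (3.73 against 0.93), more Il1b, the gene of interleukin-1 beta (3.31 against 0.25), and more Csf3r (1.13 against 0.12). These genes averaged 0 in the primary granule range. Retnlg was shared by both later ranges (23.58 and 13.37). Over 258 thinned cells of all libraries, specific granule transcripts went with Ngp and Camp (Spearman rho 0.70) and receptor transcripts with interferon-stimulated ones (0.57), whereas receptors ran against Ngp and Camp (rho -0.46). These cells share libraries and depth, so the values are a description.

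**Figure D2:**
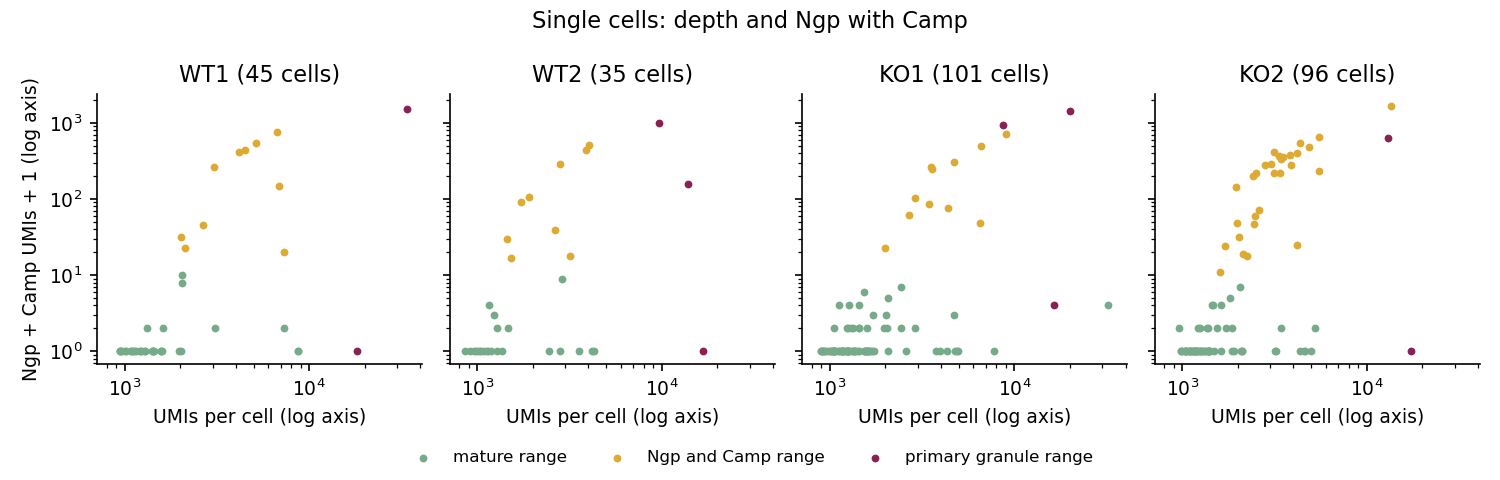
Each point is a cell, with its total UMIs (log axis) against its summed UMIs of Ngp and Camp plus 1 (log axis), for each library. Cells with 0 Ngp and Camp lie along the bottom, mostly at low depth, cells of the Ngp and Camp range rise to the upper right, and the 10 cells of the primary granule range are among the deepest.

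A few deep cells weighed heavily on sums per library. The 10 cells of the primary granule range gave 31.9% (WT1), 39.1% (WT2), 16.5% (KO1) and 12.5% (KO2) of all UMIs of these cells, and the mature range 41.0%, 38.4%, 65.5% and 45.6%. The KO1 cell of 32105 UMIs described above was in the mature range and gave 17.9% of its UMIs there. Without the cells of under 1% the mature range gave 34.5% (WT1), 35.7% (WT2), 58.1% (KO1) and 44.5% (KO2) of UMIs. Cells of the mature range thus gave more of the summed UMIs in KO than in WT, without overlap either way, and values within the mature range are given beside the main results.

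Levels of the gene lists were summed per library. The 11 specific granule genes, of which Bpi had 0 UMIs, summed to 20982 (WT1), 29825 (WT2), 15741 (KO1) and 27544 CPM (KO2) and the 20 receptor and migration genes to 4459, 3905, 5342 and 5828 CPM. The log2 ratio of their summed UMIs was 2.23 (WT1), 2.93 (WT2), 1.56 (KO1) and 2.24 (KO2), so that KO2 lay between the WT libraries. The mean in KO was lower by -0.68 on the log2 scale (KO 1.90 ± 0.48, WT 2.58 ± 0.49, SD, n = 2 each, 2-sided exact permutation p = 0.67), and by -0.68 and -0.69 within the chimeras. In the mature range the difference was -1.34, with WT at 1.48 ± 0.81 and KO at 0.14 ± 0.01 (exact p = 0.33), and the WT libraries there held 4 of the 5 monocyte-gene cells. Without the mature cells that lacked neutrophil genes it was -0.65 (exact p = 0.33). Primary granule genes, led by Elane, summed to 4795 (WT1), 3739 (WT2), 372 (KO1) and 3075 CPM (KO2), with the low value in KO1 where no Elane-rich cell was found. NADPH oxidase genes, which make the oxidative burst, lay at 4649 (KO1) to 5871 CPM (WT2), little above the 4421 to 4753 CPM of the other cells.

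**Figure D3:**
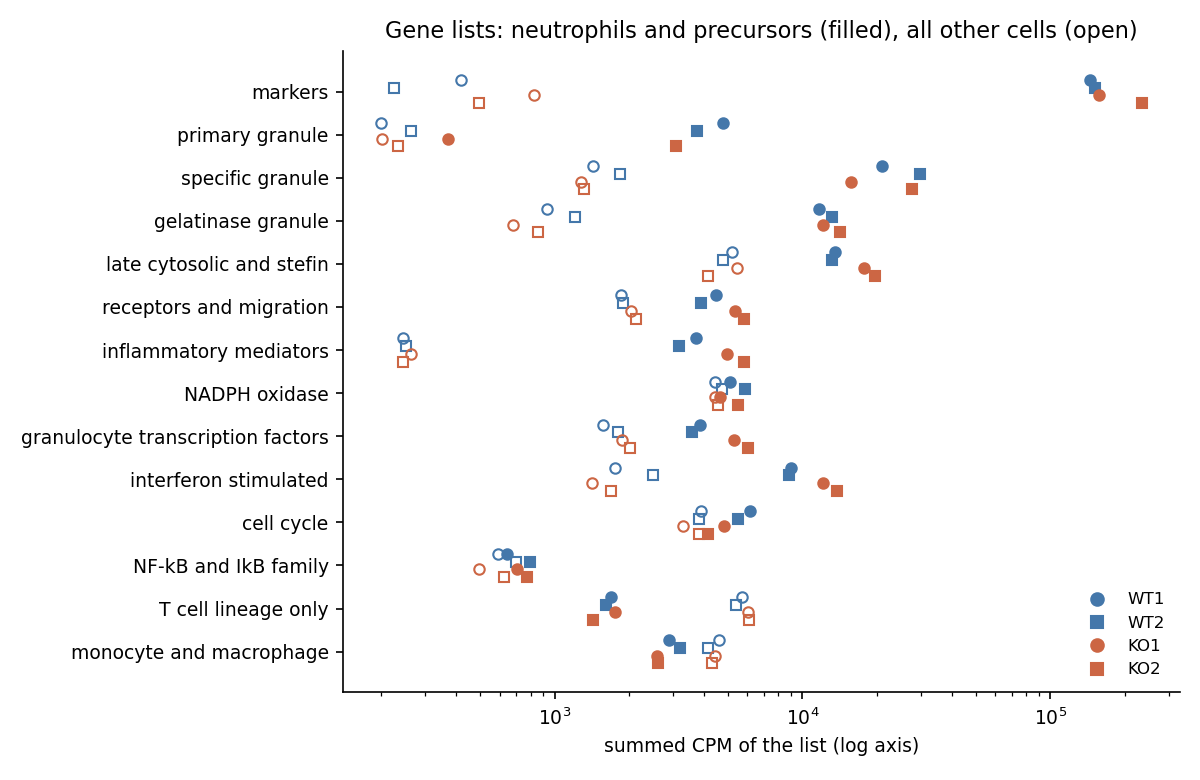
Summed CPM of 14 gene lists (log axis) in neutrophils and precursors (filled) and in all other cells (open) of each library, with WT in blue and KO in orange. Granule, inflammatory and interferon-stimulated lists are higher in the neutrophils of every library, and the T cell lineage list is lower in them (1424 to 1761 CPM against 5413 to 6068 CPM).

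Bcl3 itself was measured in few of the cells. It had 15 (WT1), 9 (WT2), 24 (KO1) and 19 UMIs (KO2), or 91.9, 87.6, 87.5 and 78.4 CPM, in 56 of the 277 cells. In the other cells it stood at 32.7 (WT1), 108 (WT2), 26.9 (KO1) and 86.7 CPM (KO2), lower in KO within each chimera and further apart between chimeras. These are 3′ counts, and which part of the gene the allele lacks is not given in the sources used here, so the level does not check the genotype. The log2 fold change in neutrophils was -0.05 (SE 0.37, edgeR adjusted p = 0.97).

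Whether neutrophils differed between genotypes was tested with edgeR's quasi-likelihood test on UMIs summed per library. Of 2527 genes tested, 2 were higher in KO (0.0791%), Fos and Sirpb1b, and 0 were lower (0%), at an adjusted p of 0.05. At an unadjusted p under 0.05, 151 were higher (5.98%) and 116 lower (4.59%). The median log2 fold change was -0.04, and 47.2% of genes were above 0. DESeq2 called Fos and Wfdc17 higher and 1 gene lower, with 90 genes at an unadjusted p under 0.05. With chimera as a block no gene was called in either direction, with 297 at an unadjusted p under 0.05, nor in the cells with a UMI of Ngp, Camp, Retnlg, Ltf, Csf3r or Cxcr2, with 171. Without the cells of under 1%, 3 of 2344 genes were called higher (Fos, Sirpb1b and Wfdc17) and 1 lower, with 415 at an unadjusted p under 0.05, and with the block as well 8 and 2.

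Fos, an immediate early gene whose product is part of the transcription factor AP-1, had 18 (WT1), 10 (WT2), 119 (KO1) and 162 UMIs (KO2), found in 12, 7, 35 and 37 cells. This gave 110, 97.4, 434 and 669 CPM, both KO libraries above both WT libraries. The log2 fold change was 2.47 (SE 0.36, edgeR adjusted p = 0.0236). It was 2.40 with the block (adjusted p = 0.0799), 1.71 in the mature range (adjusted p = 0.0561), 2.29 without the 9 cells that lacked neutrophil genes (adjusted p = 0.0913) and 1.65 in the mature range with the block (adjusted p = 0.0117). In mature cells with neutrophil genes it was 1.49 (adjusted p = 0.34), and with the block as well 1.41 (adjusted p = 0.0137). Without the cells of under 1% it was 2.64 (adjusted p = 0.00748), and 1.83 in the mature range (adjusted p = 0.000625). The direction was the same in all 21 alternatives run and the gene was called in 16 of them (DESeq2 included), with adjusted p from 2.36e-11 to 0.339. Junb, of the same family, was at 472 (WT1), 370 (WT2), 853 (KO1) and 1119 CPM (KO2), a log2 difference of 1.29 that missed the threshold (adjusted p = 0.17, and 0.80 with adjusted p = 0.55 in the mature range), and Jun at 49.0, 77.9, 36.5 and 74.3 CPM with -0.08 (adjusted p = 0.97). Of 8 transcription factors tested, Fos was the only one called (0.0791% of all genes were called higher), and 2 of 8 were higher at an unadjusted p under 0.05 (5.98% of all genes).

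Sirpb1b, a signal-regulatory protein gene of myeloid cells, had 7 (WT1), 4 (WT2), 62 (KO1) and 59 UMIs (KO2), in 7, 4, 44 and 41 cells. In CPM this was 42.9, 38.9, 226 and 244, again without overlap. The log2 fold change was 2.56 (SE 0.39, adjusted p = 0.0236). It has near-identical copies among which reads can be split, and it was called in 12 of 19 alternatives (adjusted p from 2.31e-06 to 0.339). The difference within the mature range was 1.95 (adjusted p = 0.0561, and 0.0155 with the block). Without the 9 cells that lacked neutrophil genes it was 2.30 (adjusted p = 0.0913), and in mature cells with neutrophil genes 1.64 (adjusted p = 0.34, and 0.0752 with the block). It was 2.57 without the cells of under 1% (adjusted p = 0.0179), and DESeq2 did not call it (adjusted p = 0.0615). In the other cells it stood at 0.749 (WT1), 1.15 (WT2), 2.74 (KO1) and 2.96 CPM (KO2), and the interaction below did not call it (1.07, adjusted p = 1).

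Of 8 inflammatory mediators tested, 0 were called, 4 were higher and 0 lower at an unadjusted p under 0.05 (5.98% and 4.59% of all genes), and all 8 had a log2 fold change above 0 (median 0.96; 47.2% of all genes were above 0). Their summed level within the mature range was 7117 (WT1), 6015 (WT2), 6740 (KO1) and 9695 CPM (KO2), where the genotypes overlapped. There 4 of 6 tested were above 0 (median 0.52), and in mature cells with neutrophil genes 3 of 5 (median 0.01). Il1b was at 962 (WT1), 409 (WT2), 1677 (KO1) and 1531 CPM (KO2), a log2 difference of 1.27 (adjusted p = 0.19), and 0.80 in the mature range (adjusted p = 0.47). Cxcl2, a chemokine that draws neutrophils, had 2, 0, 24 and 79 UMIs in 1, 0, 5 and 11 cells, and 1 cell each held 58.3% of it in KO1 and 55.7% in KO2 (log2 difference 4.74, adjusted p = 0.0939). Prok2, prokineticin 2, had 1, 3, 31 and 38 UMIs (3.16, adjusted p = 0.0808). In the mature range Cxcl2 and Prok2 were called higher (adjusted p = 0.0122 and 0.0467). In mature cells with neutrophil genes Prok2 was not called (adjusted p = 0.32, and 0.00676 with the block) and Cxcl2 could not be tested. Without the cells of under 1% neither was called over all ranges (adjusted p = 0.0638 for Cxcl2 and 0.0537 for Prok2), and both were called in the mature range (0.000625 and 0.00741). Over their alternatives the adjusted p ran up to 0.411 for Cxcl2 and 0.319 for Prok2. Ccl6, the most abundant mediator, was at 1501, 1305, 1648 and 1787 CPM in WT1, WT2, KO1 and KO2 (0.36, adjusted p = 0.69).

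Wfdc17 was at 1464 CPM (WT1), 1071 (WT2), 4204 (KO1) and 3595 CPM (KO2), a mean of 1267 ± 278 in WT and 3900 ± 431 in KO (SD, n = 2 each). The log2 difference of 1.68 (SE 0.29) narrowly missed the threshold with edgeR (adjusted p = 0.0548) and was called by DESeq2. The difference within the mature range, where the gene is concentrated, was 1.14 (adjusted p = 0.0504, and 0.0187 with the block). Without the 9 cells that lacked neutrophil genes it was 1.68 (adjusted p = 0.0983), and in mature cells with neutrophil genes 1.07 (adjusted p = 0.33, and 0.000519 with the block). Without the cells of under 1% the gene was called, at 1.82 over all ranges (adjusted p = 0.0356) and 1.18 in the mature range (adjusted p = 0.00146). Over 21 alternatives the adjusted p ran from 3.26e-07 to 0.334. Of the 9 late cytosolic and stefin genes tested, 2 were higher and 2 lower at an unadjusted p under 0.05 (5.98% and 4.59% of all genes).

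**Figure D4:**
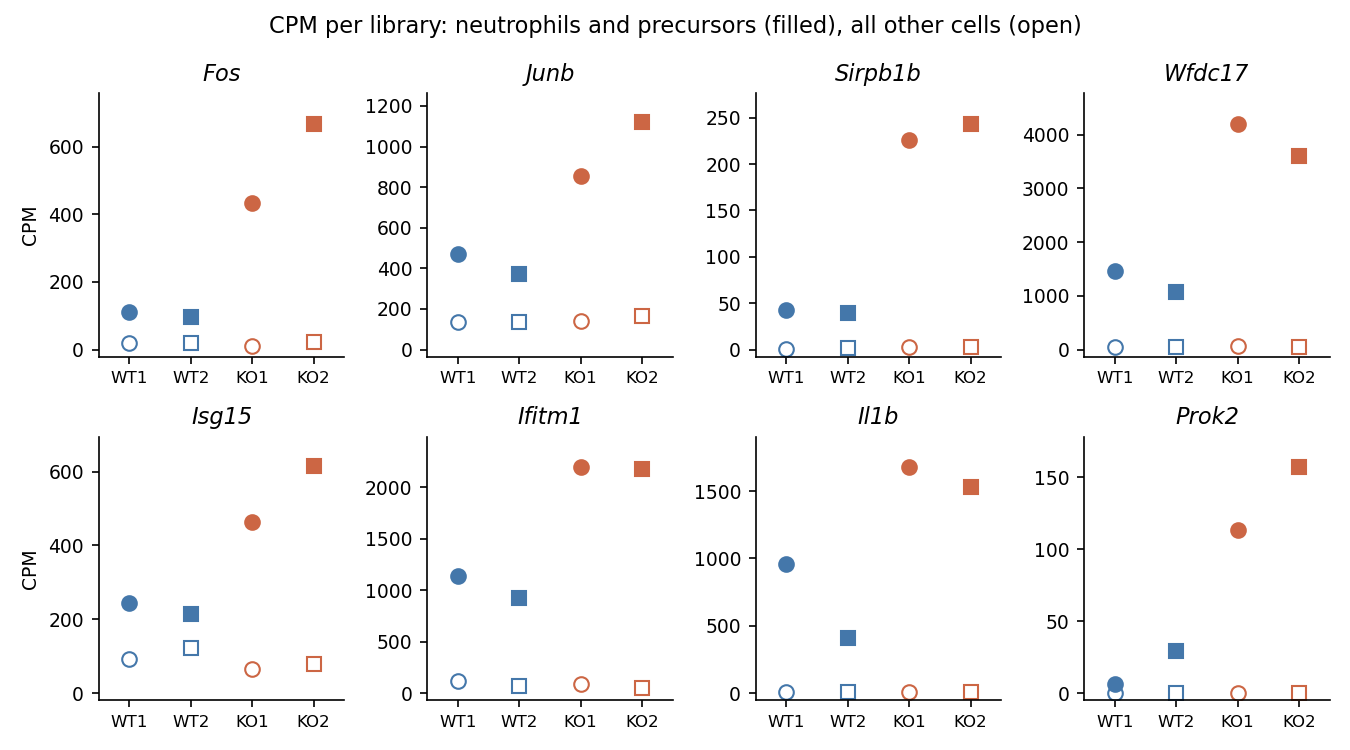
CPM of 8 genes in each library, in neutrophils and precursors (filled) and all other cells (open), on axes that start at 0 and differ between genes. In the neutrophils both KO libraries lie above both WT libraries for each of the 8 genes; of these Fos and Sirpb1b passed the test.

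The granule and receptor genes gave no call over all ranges, where 5.98% of all genes were higher and 4.59% lower at an unadjusted p under 0.05. For primary granules, 0 of 6 tested were higher and 2 lower at that p (median log2 -1.26, resting on the few primary granule-range cells), and Elane was at 1709 (WT1), 1772 (WT2), 83.9 (KO1) and 1280 CPM (KO2). Of 10 specific granule genes 0 were higher and 1 lower (median 0.20), of 5 gelatinase granule genes 2 and 0 (0.35), of 17 receptor and migration genes 3 and 0 (0.48) and of 6 NADPH oxidase genes 0 and 0 (-0.13). Without the 9 cells that lacked neutrophil genes 0 of 4 gelatinase granule genes were higher (median -0.08), 1 of 17 receptor and migration genes (0.28; 4.19% of all genes) and 0 of 10 specific granule genes (-0.07), so that the medians of the gelatinase and specific granule lists changed sign. Within the mature range 0 of 8 specific granule genes were higher and 4 lower (median -0.79; 3.64% and 3.79% of all genes), and of 6 NADPH oxidase genes 0 and 3 (-0.63, all 6 below 0), whereas of 16 receptor and migration genes 0 and 0 (0.12, and -0.09 in mature cells with neutrophil genes). In mature cells with neutrophil genes 5 of 7 specific granule genes were lower (median -0.84; 3.86% of all genes) and 2 of 5 NADPH oxidase genes (-0.49), and in mature cells of at least 1% 3 of 7 (-0.52; 5.89% of all genes) and 1 of 5 (-0.33). Of the specific granule genes Lyz2 and Chil3 were called lower in the mature range, and monocytes express both. Of 17 cell cycle genes over all ranges 0 were higher and 3 lower (median -0.48). Without the 9 cells 1 of 15 cell cycle genes was lower (median -0.23), as were 2.57% of all genes. Without the cells of under 1%, 4 of 15 cell cycle genes were lower (median -0.55), as were 8.62% of all genes. None of the few that could be tested in the mature range passed that p, with medians of -0.22 (5 genes), 0.02 (4 genes, cells with neutrophil genes) and 0.38 (3 genes, cells of at least 1%), so that the direction was not kept. Over all ranges, of 5 NF-kB and IkB genes 0 and 0 (-0.05) and of 6 apoptosis regulators 0 and 0 (0.03). Of the 8 early progenitor genes, Npm1 alone could be tested, and Cd34 and Flt3 had 0 UMIs. Among other lineages, 1 of 11 CD8 T cell genes was higher and 1 lower, as were Cd3e and Cd8a within the T cell lineage list. In the mature range 2 genes were called higher (Cxcl2, Prok2) and 4 lower, among them Chil3, Lyz2 and Tmsb10. Lyz2 and Chil3 were abundant in the monocyte-gene cells of WT. In mature cells with neutrophil genes 0 of 1245 genes were called in either direction, with 85 at an unadjusted p under 0.05 (with the block 8 were higher and 8 lower). In mature cells of at least 1% on the choosing genes 8 of 1137 were higher and 10 lower, with Lyz2 at -1.64 (adjusted p = 0.000575). This set still held the monocyte-gene cells of WT2 with 2449 and 3574 UMIs, which had 73 and 143 UMIs of Lyz2. In the cells with neutrophil genes Lyz2 differed by -1.31 (adjusted p = 0.32, and 1.31e-05 with the block), and Chil3 fell below the filter.

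Interferon-stimulated genes were abundant in the neutrophils. The 21 genes of the list summed to 9009 (WT1), 8861 (WT2), 12106 (KO1) and 13761 CPM (KO2), led by Ifitm3, against 1759, 2485, 1419 and 1683 CPM in the other cells. KO lay above WT in the neutrophils and below WT of the same chimera in the other cells. At 1000 UMIs per cell the sums were 15.7, 14.8, 19.2 and 19.1 UMIs, and in the mature range 13816, 13959, 15412 and 20486 CPM, in the same order and also without overlap. Of 17 genes tested, 0 were called. At an unadjusted p under 0.05, 8 of the 17 were higher and 0 lower (5.98% and 4.59% of all genes). Of the 17, 15 were above 0 with a median of 0.58, against 47.2% and -0.04 over all genes. In the mature range 2 of 15 were higher at that p (median 0.40; 3.64% of all genes), without the 9 cells that lacked neutrophil genes 5 of 17 (median 0.40; 4.19% of all genes), and in mature cells with neutrophil genes 0 of 15 (median 0.13; 2.97% of all genes). Leaving out the cells of under 1% gave 10 of 17 (median 0.67; 9.09% of all genes), and 5 of 15 in the mature range (median 0.39; 5.54% of all genes). Isg15, a ubiquitin-like modifier, was at 245 (WT1), 214 (WT2), 463 (KO1) and 615 CPM (KO2), a log2 difference of 1.29 (SE 0.30, adjusted p = 0.17). Ifitm1 was at 1139, 925, 2199 and 2175 CPM, a difference of 1.15 (SE 0.27, adjusted p = 0.17). Gbp2, a guanylate-binding protein, was at 392, 487, 861 and 780 CPM (0.98, adjusted p = 0.19).

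**Figure D5:**
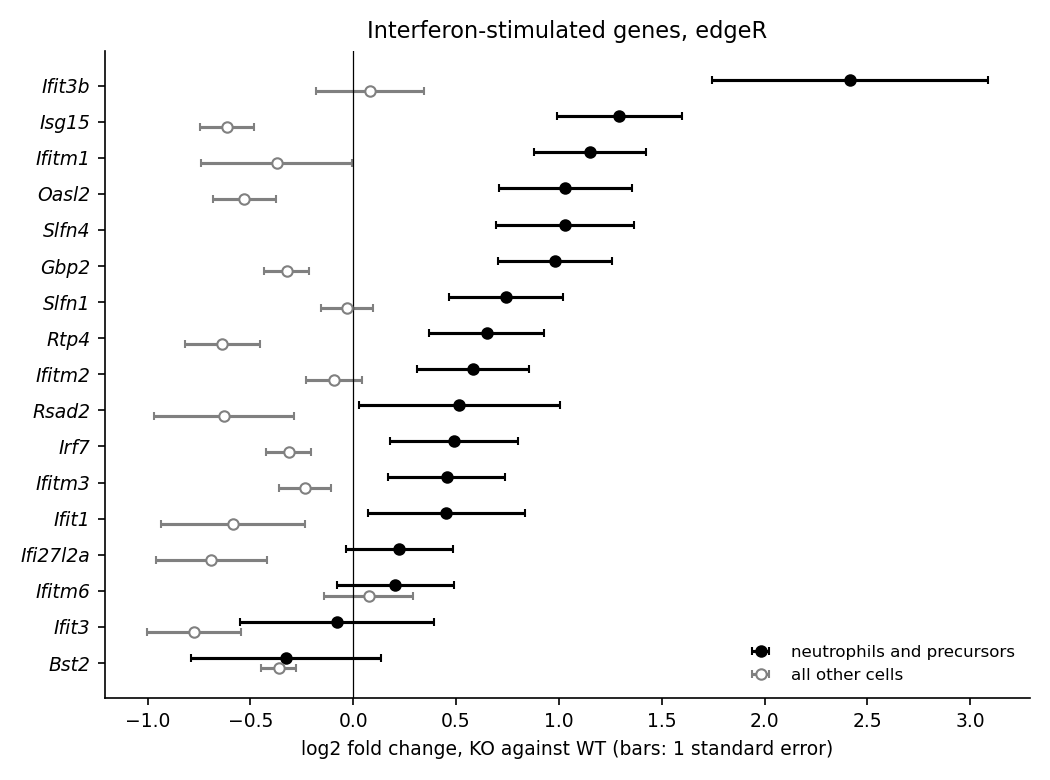
Log2 fold change of KO against WT (edgeR, bars 1 standard error) for the 17 interferon-stimulated genes tested in neutrophils and precursors (filled) and, where tested, in all other cells (open). In the neutrophils 15 of 17 lie above 0, and most of the open points lie below 0.

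Whether the effect of genotype differed between neutrophils and the other cells was tested by an interaction term over 11085 genes. The effect was more positive in neutrophils for 21 genes (0.189%) and more negative for 17 (0.153%), with a median of 0.10 over all genes. Among the genes called were 2 used in the choice of cells, which are not counted as findings. Of the 21 interferon-stimulated genes all were above 0 (median 0.99) and 6 were called, while 55.0% of all genes were above 0. Within neutrophils alone 17 of the 21, and 2527 genes in all, passed the filter, so some of these values rest on few neutrophil UMIs. All 21 were also above 0 in mature cells with neutrophil genes, where 68.1% of all genes were, and 20 without the cells of under 1% (56.5% of all genes). The 6 called were Isg15 (1.96), Ifitm1 (1.67), Oasl2 (1.65), Gbp2 (1.40), Rtp4 (1.35) and Ifi27l2a (0.97, log2 scale). Isg15 and Ifitm1 were called under all 11 alternatives, whereas the other 4 were not called without WT2 (adjusted p from 0.0756 for Gbp2 to 1.0 for Ifi27l2a) nor within the mature range. In the other cells 10 of 20 genes of the list were lower in KO at an unadjusted p under 0.05 (6.99% of all genes) and 0 were called. With the block 12 were called lower, as were 734 of all 11518 genes, with 702 called higher, whereas in neutrophils 0 of 17 were called with or without the block. The interaction tests the difference between the groups of cells, not the difference within neutrophils. For Isg15 the log2 differences were 1.29 in neutrophils and -0.61 in the other cells. Its interaction had an adjusted p of 1.24e-08, and 5.37e-13 to 0.00826 over 11 alternatives.

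Fos had the smallest adjusted p among genes higher in neutrophils by this test (interaction 2.75, SE 0.35, adjusted p = 7.15e-12, and 2.31e-16 to 0.00336 over 11 alternatives), with -0.14 in the other cells. Wfdc17 (1.67, adjusted p = 1.67e-07) lost its call without WT2 (1.40, adjusted p = 0.0693). Junb (1.21), Slpi (1.24), an inhibitor of elastase, and Socs3 (2.22), a feedback inhibitor of cytokine receptors named after its value was seen, were also called, but not without WT2 (adjusted p = 0.709, 1.0 and 0.894) nor within the mature range (0.786, 0.0533 and 0.192). On the negative side were 6 of 7 primary granule genes, 5 of 6 erythroid genes and Ltf. The cells of the primary granule range held 1901 of the 1927 UMIs of primary granule genes other than Ctsc. Ctsc stood at 79.6 (WT1), 428 (WT2), 65.6 (KO1) and 49.5 CPM (KO2) and was not called without WT2. Of the erythroid genes Hba-a1 rests on 1 cell of WT1, and all 5 erythroid calls were lost with the block. The 4 choosing genes stood higher in KO than in WT of the same chimera in the other cells (389 and 776 CPM in chimera 1, 200 and 460 CPM in chimera 2), as they did in the low-count droplets, and the part of free RNA in the interactions of Ltf and the other granule genes was not tested. DESeq2 called 11 genes more positive and 0 more negative, and without the cells of under 1% edgeR called 75 and 20.

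Of 9 genes that differed between genotypes over the whole of the sorted cells, 3 could be tested in neutrophils, and 0 were called there. At an unadjusted p under 0.05 Mir142hg and Prok2 (described above) were higher, while Jun was not (5.98% of all genes were higher). The sorted cells include these neutrophils, so the choice of the 9 genes was not independent of them. Mir142hg had 3 (WT1), 1 (WT2), 15 (KO1) and 25 UMIs (KO2) in neutrophils (log2 difference 2.40, adjusted p = 0.19) and 2.49 in the other cells, with an interaction of 0.06. AY036118 had 0 UMIs in both WT libraries and 40.1 and 86.7 CPM in KO1 and KO2, beside 39.9 and 88.9 CPM in the other cells. Jun fell by 1.35 on the log2 scale in the other cells of KO (adjusted p = 0.019), and its interaction was 1.34 (adjusted p = 1).

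Transcripts of sex-linked genes were compared as a check of origin. Among neutrophils with only Xist or only Y-linked UMIs, 3 and 8 were so in WT1, 7 and 2 in WT2, 8 and 19 in KO1 and 10 and 12 in KO2. The other cells gave 189 and 1560 in WT1, 3046 and 660 in WT2, 260 and 1897 in KO1 and 2830 and 854 in KO2. By these tallies chimera 1 was mostly of Y-linked and WT2 mostly of Xist-positive cells in both groups. In KO2 Xist-only cells led among the other cells and not among the neutrophils. In UMIs of neutrophils, Xist and Y-linked genes had 14 and 14 in WT1 and 19 and 2 in WT2. They had 25 and 27 in KO1 and 41 and 19 in KO2, so Xist led in KO2 by UMIs. Xist and Y-linked transcripts of free RNA also enter these counts, so the sex of the source of the neutrophils cannot be told from them.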

How the data were processed

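The authors sequenced 10x Genomics 3′ (version 2) libraries and deposited unfiltered UMI counts, made with Cell Ranger 2.2.0 (bcl2fastq 2.17, build mm10, per the submitters' processing notes). Libraries were grouped by the genotype in the labels. The cells and gene lists were chosen with earlier results of these data known. Genes named are the markers, up to 5 per list by CPM and Bcl3, genes called, the leading genes by ratio, and genes an earlier analysis of all cells had called; exceptions are marked in the text. UMIs were summed per library and tested with edgeR 4.0.16 (R 4.3.3, TMM, filterByExpr, Benjamini-Hochberg at 0.05), with DESeq2 1.42.0 as an alternative. Ighm, Iglc2, Trac, Trbc2 and Cebpd were not analysed here. Same-numbered libraries come from the same animal. In the sums over neutrophils, WT1 minus WT2 and KO1 minus KO2 correlated at 0.052 over 1282 genes. The other cells were not part of that value, and there the block by chimera moved the calls from 30 higher and 10 lower to 702 and 734. Nothing says that libraries are further replicated, so p-values within neutrophils without the block measure the spread between them. Those with the block measure the spread of differences within chimeras, and those of the interaction the spread of differences within libraries. On simulated counts with a set dispersion of 0.05, the fit within neutrophils recovered 2.5% of 200 genes changed 2-fold. It recovered 80.5% of those changed 4-fold (2527 genes, 6 false calls), and the interaction fit 0.5% and 44% (11085 genes). For the interaction the changed genes were drawn only from those better expressed in neutrophils, so its recovery does not cover genes that are low there. Certain genes are not reported here. Sequences are from RefSeq.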

Additional observations from a re-analysis of the deposited data

Results flagged for a closer look

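The effect of genotype differed between neutrophils and the other cells for 25 genes of the lists (edgeR interaction, adjusted p under 0.05), of 38 called over all genes. Over all 11085 genes tested, 0.189% were more positive and 0.153% more negative, and 2 of the 38 were genes used in the choice of cells. The lists were chosen with earlier results of these data known, so the 25 do not show that calls gather in them. Of these 25, 18 were also called with chimera as a block and 8 by DESeq2. More positive in the neutrophils were Fos (2.75), Ccl4 (2.90), Jchain (2.34), Isg15 (1.96), Chil3 (1.75), Ifitm1 (1.67), Wfdc17 (1.67), Oasl2 (1.65), Gbp2 (1.40), Rtp4 (1.35), Slpi (1.24), Junb (1.21) and Ifi27l2a (0.97), all as log2 fold changes of KO against WT in neutrophils minus the same in the other cells. For Chil3 both groups were lower in KO (-1.02 in neutrophils and -2.68 in the other cells). Jchain rested on KO1, with 221 UMIs (194 of them in 1 cell with under 1% of its UMIs on the choosing genes) against 7 to 20 in the other 3 libraries, and Ccl4 on 3, 0, 9 and 24 UMIs in WT1, WT2, KO1 and KO2.

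More negative were Elane (-2.39), Prtn3 (-2.48), Ctsg (-2.46), Mpo (-2.19), Ms4a3 (-2.18), Ctsc (-1.48) and Ltf (-1.55) of the granules, and Hba-a2 (-6.41), Hbb-bs (-5.32), Hba-a1 (-5.00), Hbb-bt (-4.29) and Car2 (-3.92) of the erythroid list. Of Hba-a1, 65 of the 67 UMIs in WT1 came from 1 cell, and its UMIs in the other libraries were 1 to 3. No erythroid gene passed the filter of the test within neutrophils alone. In WT1, 40 of the 45 cells had 0 UMIs of the erythroid list, so the values of this list rest on few cells.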

How the results depend on the processing

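The mean differences in the share of neutrophils and in the balance of specific granule and receptor transcripts kept their direction under all alternatives run (0.0789 to 1.25 points and -1.34 to -0.33 on the log2 scale); among cells with 0 T cell lineage UMIs, however, KO1 (0.112%) lay below WT1 (0.142%) in chimera 1. Alternatives on the mature range, on cells with neutrophil genes and on the share of the choosing genes were chosen after seeing the data. Within neutrophils, against 2 genes higher and 0 lower, there were 0 and 0 with the replicate block, 46 and 25 without the filter (11008 genes), 4 and 1 from 10 UMIs of the choosing genes, 2 and 1 with DESeq2, 3 lower from 40 UMIs, 3 lower in equal thinned cells, 4 lower in the mature range, 8 and 10 there with the block, 0 higher in cells with neutrophil genes, and in mature cells with neutrophil genes 0 higher, or 8 and 8 with the block. Without cells of under 1% on the choosing genes outside the primary granule range there were 3 and 1, or 8 and 2 with the block, and in the mature range of these 8 and 10, or 11 and 10 with the block. Leaving out 1 library in turn gave 15 to 57 higher and 5 to 41 lower, where the lone library is assumed to vary like the others; the most came without KO1. For the interaction, against 21 and 17, there were 11 and 0 with DESeq2, 6 and 3 in the mature range, 14 and 1 in mature cells with neutrophil genes, 75 and 20 without the cells of under 1%, 12 more positive in cells with neutrophil genes and 11 more negative with the block (28 more positive); leaving out 1 library gave 5 to 20 and 6 to 14, with 5 more positive without WT2 and 6 more negative without WT1. The causes were not tested. Counts within neutrophils are thus unstable, and on simulated counts the fit within neutrophils called 2.5% of the genes changed 2-fold.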
